A study of Mus musculus with 86 samples.

Results

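The Nanog, Dppa3 and Phc1 domain is a stretch of mouse chromosome 6 that carries 6 genes, Nanog, Dppa3, Gdf3, Apobec1, Slc2a3 and Phc1. It was taken here as every called peak of SOX2 or CTCF within 50 kb of the body of any of these genes on the mm10 build. The rule found 274 of the 327957 peaks in the 8 lists. Because the 50 kb margins of Apobec1, Gdf3, Dppa3, Nanog and Slc2a3 run into each other, the peaks fall into 2 stretches, chr6:122527792-122852363 (325 kb) for those 5 genes and chr6:122267731-122390227 (122 kb) for Phc1. The libraries are chromatin immunoprecipitation with sequencing (ChIP-seq) of mouse embryonic stem cells of strain 129S5/SvEvBrd, grown in serum with leukemia inhibitory factor. Mitotic cells had been arrested with 100 ng/ml nocodazole, a microtubule poison, for 6 h and collected by shake-off. Asynchronous cells were untreated. SOX2 was precipitated with the antibody AF2018 and CTCF with ab70303, in 2 mitotic and 2 asynchronous libraries each.

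The mitotic cells had also been exposed to the drug, so mitosis and exposure to nocodazole cannot be told apart. The labels do not say that replicates were separate cultures, so the spread between these libraries may be technical. An exact permutation p of 2 libraries against 2 cannot fall under 0.333 and does not measure that spread. Peak lists hold no expression, so neither the cell type nor the mitotic state could be checked against markers.

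Nanog encodes a homeodomain factor that sustains self-renewal of embryonic stem cells, and Dppa3 (Stella) encodes a maternal factor that protects DNA methylation marks in the zygote. Gdf3 encodes a ligand of the TGF-beta family, Phc1 a polyhomeotic subunit of Polycomb repressive complex 1, Slc2a3 the glucose transporter GLUT3, and Apobec1 the cytidine deaminase that edits Apob mRNA. Enhancers of Nanog are known both upstream of the gene and farther downstream of it, and several of them bind SOX2 with its partner OCT4. CTCF, a zinc finger protein, sits at insulators and at the anchors of chromatin loops. Most transcription stops in mitosis, and whether a factor stays on its sites through division is the question that a mitotic ChIP-seq addresses.

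The promoters of Nanog and Phc1, from the RefSeq table (GRCm38.p6, the assembly of mm10), are shown because SOX2 peaked strongly at both starts in asynchronous cells and the calls differed in mitosis: both mitotic libraries had a SOX2 peak that reached the Phc1 window, and neither had one in the Nanog window. Each line gives the 250 bases before the annotated start, 5′ to 3′ on the gene's own strand, chr6:122707239-122707488 on the plus strand for Nanog and chr6:122340228-122340477 on the minus strand for Phc1. Capitals mark the searched words that were found.
Nanog: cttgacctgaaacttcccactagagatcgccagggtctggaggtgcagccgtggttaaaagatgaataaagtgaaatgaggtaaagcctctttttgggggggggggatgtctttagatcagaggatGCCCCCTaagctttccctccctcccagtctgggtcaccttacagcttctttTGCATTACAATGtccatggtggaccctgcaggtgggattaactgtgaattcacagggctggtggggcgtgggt
Phc1: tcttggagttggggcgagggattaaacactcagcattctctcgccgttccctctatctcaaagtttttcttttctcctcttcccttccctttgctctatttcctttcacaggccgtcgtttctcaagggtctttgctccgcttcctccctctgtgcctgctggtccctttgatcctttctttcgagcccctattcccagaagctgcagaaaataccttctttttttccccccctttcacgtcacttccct

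The words were searched on both strands in windows of 300 bases, from 250 before to 50 after the start. They were the octamer ATGCAAAT, the SOX word ACAATG with its variant ACAAAG, and the CTCF core words that read AG, then A or G, then G or T, then GGC. One further word, the joined octamer and SOX form TGCATNACA, was added after the sequences had been seen. In the Nanog window TGCATTACA stood 73 to 65 bases before the start and overlapped the SOX word ACAATG, 67 to 62 bases before it. This joined element is known to bind OCT4 and SOX2. The asynchronous SOX2 summits lay 71 and 73 bases before the start, inside the joined word. The table also lists a later Nanog start at position 122707565, which puts the same summits 147 and 149 bases before it and the joined word 149 to 141 bases before it. The window also held GCCCCCT, the reverse complement of a CTCF core word, 124 to 118 bases before the start, but no CTCF peak of any list overlapped the window. The Phc1 window held none of the words, and the SOX2 summits there lay outside it. Among all 32851 promoter windows the joined word was in 0.801%, the octamer in 1.74%, a SOX word in 28.6% and a CTCF core word in 27.6%. A match describes the letters and does not show a binding site. Apobec1 also had a window, with no word and no peak, and Dppa3, Gdf3 and Slc2a3 were not in the table.

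Over the whole genome 1976 and 408 SOX2 peaks were listed for mitotic replicates 1 and 2, against 90266 and 63504 for asynchronous ones. For CTCF there were 20142 and 15338 mitotic peaks, against 68328 and 67995 in asynchronous cells. Read totals were not used here. As a measure of depth, the lowest local background among the summits solved in each list was divided by the width of its shortest peak. This gave 2.62 and 1.64 reads per 100 bp in mitotic SOX2 libraries, against 2.48 and 1.61 in asynchronous ones. For CTCF it gave 3.62 and 3.77 in mitotic libraries, against 3.36 and 3.71 in asynchronous ones. Depth by this measure was close between conditions for each replicate number, and lower in replicate 2 of SOX2. The lowest summit in a mitotic list was 18 and 15 reads for SOX2 and 21 and 22 reads for CTCF. Weaker mitotic signal is thus not listed. In asynchronous lists the lowest summit was lower, 15 and 12 reads for SOX2 and 19 and 19 reads for CTCF. In SOX2 replicate 1, a summit −log10 p of 7.08 gave a −log10 q of 3.23 in mitosis. In asynchronous cells 7.02 gave 4.98. The bar for a call thus differed between conditions, and how much of the lower mitotic counts it accounts for was not tested.

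The first comparison asks which SOX2 sites around these genes were detected in mitosis. Few were, and most of those rested on 1 library. The domain held 6 mitotic SOX2 peaks in replicate 1 and 1 in replicate 2, against 65 and 54 asynchronous peaks. The means were 3.5 ± 3.54 mitotic and 59.5 ± 7.78 asynchronous peaks (SD, n = 2 each), or 17-fold fewer in mitosis. The groups did not overlap, and the two-sided exact permutation p was 0.333, the smallest that 2 libraries against 2 can give. The mitotic to asynchronous ratio of 0.0588 came to 0.0168 when mitotic replicate 1 was left out and to 0.101 when mitotic replicate 2 was. Over the whole genome the mitotic lists were 64.5-fold shorter. That the domain's ratio differs from the genome's was not tested, and it rests on few peaks.

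**Figure D1:**
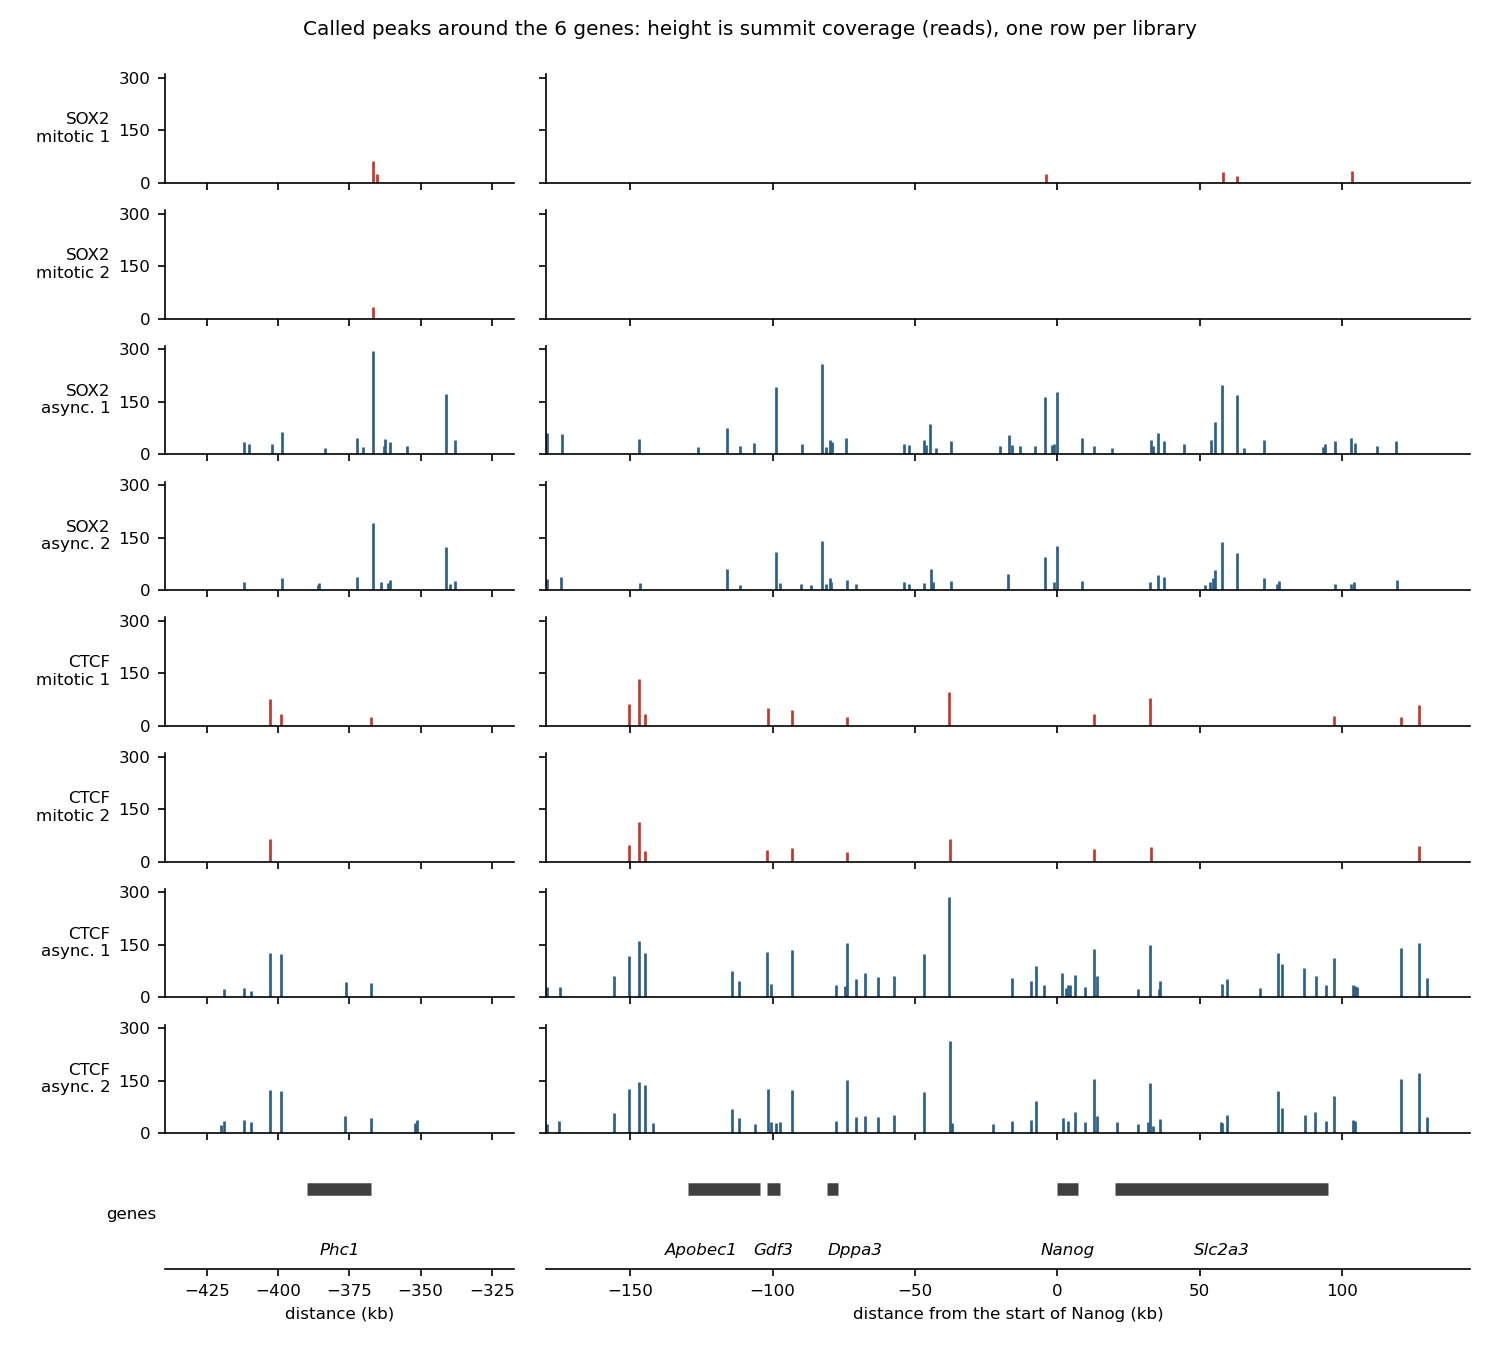
Called SOX2 and CTCF peaks along the Phc1 stretch (left) and the Apobec1 to Slc2a3 stretch (right), by distance in kb from the start of Nanog. Each row is 1 library, mitotic (red) above asynchronous (blue), the height of a line is the coverage at the peak summit in reads, and gene bodies are drawn at the foot. Mitotic SOX2 replicate 2 has 1 line, at Phc1, with 32 reads.

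Peaks were joined into regions to follow single sites. A reproducible region is a merged stretch with a peak in both asynchronous lists, and it was called in mitosis if a mitotic peak shared at least 1 bp with it. Of 74 SOX2 regions in either asynchronous list, 40 were reproducible and 34 were in 1 list only. All 6 and 1 mitotic SOX2 peaks lay in reproducible regions. Mitotic replicate 1 called 5 of the 40 regions (12.5%, 95% Wilson interval 5.46 to 26.1), where it called 3.37% of all 51672 SOX2 regions of the genome. Mitotic replicate 2 called 1 (2.5%, 0.443 to 12.9), against 0.755% genome-wide, and that region was also the only one called in both libraries, against 0.675% genome-wide. The intervals cover counting error only and treat neighbouring regions as independent. Neither library called the other 35 regions (87.5%), against 96.6% genome-wide. When a mitotic summit also had to lie within 100 bp of an asynchronous one, replicate 1 called 2 of the 40 (5%, 1.38 to 16.5), against 2.45% genome-wide. The share in replicate 1 was above the genome's under both rules, but the interval held the genome's share under the summit rule, as it did for replicate 2 under the first rule.

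At Nanog, the SOX2 region over the start (chr6:122706907-122707877) was called in neither mitotic library, against 178 and 126 reads at its summit in asynchronous replicates 1 and 2. Its asynchronous folds, the authors' own ratio of summit coverage to local background, were 18.4 and 22.6. The region 3.17 kb upstream of the gene (chr6:122701928-122704317) was called in mitotic replicate 1 with 26 reads, against 163 and 96 reads in asynchronous cells. Mitotic replicate 2 listed no peak there. The mitotic summit stood 477 bp from the mean of the asynchronous summits, which were 4 bp apart, so the mitotic summit was at another point of the same region. A weaker region lay 0.797 kb upstream of Nanog, with no mitotic call, against 31 and 22 asynchronous reads. Of the 6 SOX2 regions nearest to Nanog, 1 was called in mitotic replicate 1 and 5 in neither library.

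None of the 9 SOX2 regions nearest to Dppa3 was called in mitosis. The strongest, chr6:122624206-122625543, ended 0.881 kb from the gene and had 259 and 140 reads in asynchronous cells. Its strength percentile was 98.3 (the rank in percent of its highest fold among the reproducible regions, taken in each asynchronous list and averaged). The Phc1 region had the same percentile to 1 decimal and was called in both mitotic lists. Over the gene itself lay 3 weaker SOX2 regions with asynchronous summits of 22 and 19, 42 and 36, and 35 and 22 reads. The region between Dppa3 and Nanog at chr6:122662368-122664149, with its summit at −44.6 kb from the start of Nanog, had no mitotic peak, against 88 and 59 asynchronous reads. A distal enhancer upstream of Nanog is known to act on Dppa3 as well.

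Phc1 had the SOX2 site most often detected in mitosis. The region chr6:122339239-122343292, 4054 bp wide over the start of the gene, had 63 and 32 reads in mitotic replicates 1 and 2, against 295 and 193 reads in asynchronous replicates. The mitotic mean of 47.5 ± 21.9 reads was 19.5% of the asynchronous mean of 244 ± 72.1 (SD, n = 2 each). The mitotic values were lower than both asynchronous ones, and in each condition replicate 2 was lower than replicate 1. The SDs in reads are not corrected for depth. As multiples of the lowest local background of each list, coverage was 11.5 and 10.9 in mitosis, against 54.2 and 55.2 in asynchronous cells. Mitotic folds were 5.81 and 8.41, against 29.9 and 21.2 in asynchronous cells, each within its own list. The mitotic summits lay 395 and 407 bases before the start, on the same side as the asynchronous summits at 472 and 475 bases. The second-strongest region near Phc1, chr6:122365503-122368230, lay 25.3 kb from the gene and had no mitotic peak, against 173 and 124 asynchronous reads. The remaining SOX2 regions near Phc1, among them 1 inside the gene with 48 and 39 asynchronous reads, were called in neither mitotic library.

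Gdf3 and Apobec1 had no SOX2 region called in mitosis. The region over Gdf3, chr6:122607445-122610290, was strong in asynchronous cells, with 193 and 108 reads, a strength percentile of 95.2 and a width of 2846 bp. Apobec1 carried 2 regions inside the gene, with 75 and 59 and with 25 and 15 asynchronous reads. Both regions nearest to Gdf3 and all 5 nearest to Apobec1 were missing from both mitotic lists.

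Slc2a3 had the most SOX2 regions, 11, of which 8 lay on its annotated body of 74.6 kb. Mitotic replicate 1 called 3 of the 11 and replicate 2 none. The region chr6:122763724-122767406, inside the annotated gene, had 30 reads in mitotic replicate 1, against 198 and 137 asynchronous reads. The neighbouring chr6:122769885-122771165 had 21 reads in mitotic replicate 1, against 170 and 106 asynchronous reads. These regions lie 57.9 and 63.0 kb from the start of Nanog, where a downstream cluster of enhancers is known in mouse embryonic stem cells. The third region, chr6:122810486-122811601, lay 8.12 kb outside Slc2a3 and had 33 reads in mitotic replicate 1, against 47 and 22 asynchronous reads, so the conditions overlapped there. It was the only region called with a strength percentile under 90, at 18.5, and its asynchronous summits were 872 bp apart. The other 6 SOX2 regions on Slc2a3 had 39 to 93 reads in asynchronous replicate 1 and 22 to 58 in replicate 2, and none was called in mitosis.

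**Figure D2:**
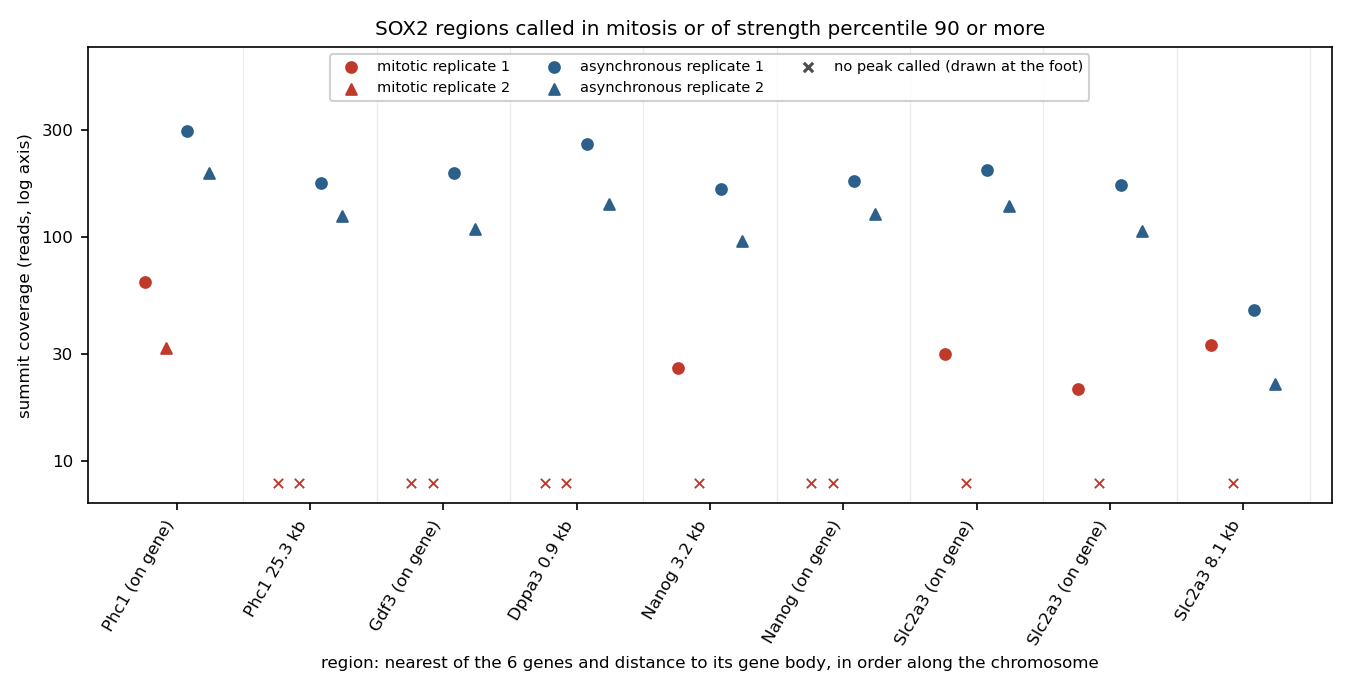
Summit coverage in reads (log axis) of 9 SOX2 regions, those with a mitotic peak or a strength percentile of at least 90, ordered along the chromosome. Points are single libraries, mitotic (red) left of asynchronous (blue), and crosses at the foot stand for libraries with no peak. Mitotic points are present at 5 regions and those of both replicates at Phc1 alone.

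Of the 5 called SOX2 regions, 4 were among the strongest of the domain. Of 8 regions with a strength percentile of at least 90, mitotic replicate 1 called 4, against 9.97% of the 4726 such regions in the genome, and replicate 2 called 1, against 4.59%. With 8 regions the Wilson interval of the share in replicate 1 ran from 21.5 to 78.5%. These calls need an overlap of 1 bp only. At the regions 3.17 kb upstream of Nanog and chr6:122763724-122767406 the mitotic summit stood 477 and 261.5 bp from the asynchronous mean. When summits had to lie within 100 bp, replicate 1 called 2 of all 40 regions. The strong regions were not set against the genome under that rule. Among the 32 weaker regions replicate 1 called 1, against 2.7% of such regions in the genome, and replicate 2 none, against 0.369%. Strong regions were 8 of the 40 in the domain and 4726 of 51672 in the genome. The shares over all regions thus do not compare regions of like strength. The median strength percentile was 91.9 in the 5 called regions and 42.4 in the 35 not called, and the median widths were 2390 and 766 bp. Genome-wide the same medians were 77.3 and 46.7. The 4 strong regions called in neither library were those at Dppa3, 25.3 kb from Phc1, at the Nanog start and on Gdf3.

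The second comparison asks the same of CTCF. The domain held 15 and 11 mitotic CTCF peaks, against 58 and 64 asynchronous ones. The means were 13 ± 2.83 mitotic and 61 ± 4.24 asynchronous peaks (SD, n = 2 each), or 4.69-fold fewer in mitosis, where the whole lists gave 3.84-fold fewer. The groups did not overlap, and the two-sided exact permutation p was again 0.333, the smallest possible. Of 70 CTCF regions in either asynchronous list, 51 were reproducible, and all mitotic CTCF peaks lay in these. Mitotic replicate 1 called 15 of them (29.4%, 18.7 to 43.0), against 33% of all 57992 CTCF regions. Mitotic replicate 2 called 11 (21.6%, 12.5 to 34.6), against 25.4%, and the same 11 were called in both libraries, against 24.5%. Each background lay inside the domain's interval, so the CTCF shares were near those of the genome. These shares do not compare regions of like strength, as the domain's CTCF regions had a median strength percentile of 37.8, against 50.7 genome-wide.

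At Nanog and Dppa3 every CTCF region that both mitotic libraries called lay outside the genes. The strongest by coverage, chr6:122668881-122670388, stood between them, 37.1 kb from Nanog, and had 96 and 65 mitotic reads, against 286 and 264 asynchronous reads. The region 5.08 kb beyond the other end of Nanog, chr6:122719716-122720928, had 33 and 36 mitotic reads, against 138 and 154 asynchronous reads. Inside Nanog lay 3 weak CTCF regions, with asynchronous summits of 34 to 70 reads, none of them called in mitosis. The region 2.44 kb from Dppa3, chr6:122632713-122634267, was called with 26 and 27 mitotic reads, against 155 and 152 asynchronous reads. Its mitotic mean was thus 17.3% of the asynchronous mean, the lowest share among the CTCF regions given here. The other 6 CTCF regions nearest to Dppa3, 1 of them on the gene with 35 and 35 asynchronous reads, were called in neither library. One of these 6 was strong, chr6:122660048-122661200, 29.8 kb from Dppa3, with 123 and 118 asynchronous reads and a strength percentile of 75.4.

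At Gdf3 both mitotic libraries called CTCF on the gene and beside it. The region over one end of the gene, chr6:122605015-122606233, had 50 and 32 mitotic reads, against 131 and 127 asynchronous reads. The region 3.92 kb away, chr6:122614011-122614638, had 46 and 38 mitotic reads, against 135 and 124 asynchronous reads. A weak region inside Gdf3, with 38 and 31 asynchronous reads, was not called in mitosis.

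Apobec1 carried 2 CTCF regions on the gene, neither called in mitosis, against 76 and 69 and 46 and 44 asynchronous reads.

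Around Phc1, CTCF was called in both mitotic libraries at chr6:122303966-122305069, 12.7 kb from the gene, with 76 and 66 mitotic reads, against 128 and 124 asynchronous reads. Mitotic replicate 1 alone called chr6:122308268-122308905 at M6pr, the gene of a mannose 6-phosphate receptor, with 33 reads, against 123 and 120 asynchronous reads. It also called the region at the start of Phc1, chr6:122339537-122340417, with 26 reads, against 41 and 44 asynchronous reads. The mitotic peak lay inside the gene and did not reach the start. That region overlaps the SOX2 region called in both mitotic SOX2 libraries. CTCF was weak there, with a strength percentile of 16.4. A further CTCF region inside Phc1 had no mitotic call, against 44 and 49 asynchronous reads.

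Slc2a3 had 17 CTCF regions, 10 of them on the gene. The only one on the gene that was called, chr6:122739706-122740647, had 79 and 42 mitotic reads, against 150 and 142 asynchronous reads. Foxj2, the gene of a forkhead factor next to it, carried chr6:122833820-122835159, with 60 and 45 mitotic reads, against 155 and 172 asynchronous reads. Mitotic replicate 1 alone called chr6:122804177-122804959, 1.81 kb from Slc2a3, with 29 reads, against 112 and 107 asynchronous reads. It also called chr6:122827946-122828695 on Foxj2 with 26 reads, against 142 and 156 asynchronous reads. This Foxj2 region was the strongest CTCF region of the domain by percentile, 96.8, and its mitotic coverage was among the lowest listed. The 9 CTCF regions on Slc2a3 that were not called had 23 to 127 reads in asynchronous replicate 1 and 27 to 120 in replicate 2, and chr6:122784670-122785797 was the highest of them.

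**Figure D3:**
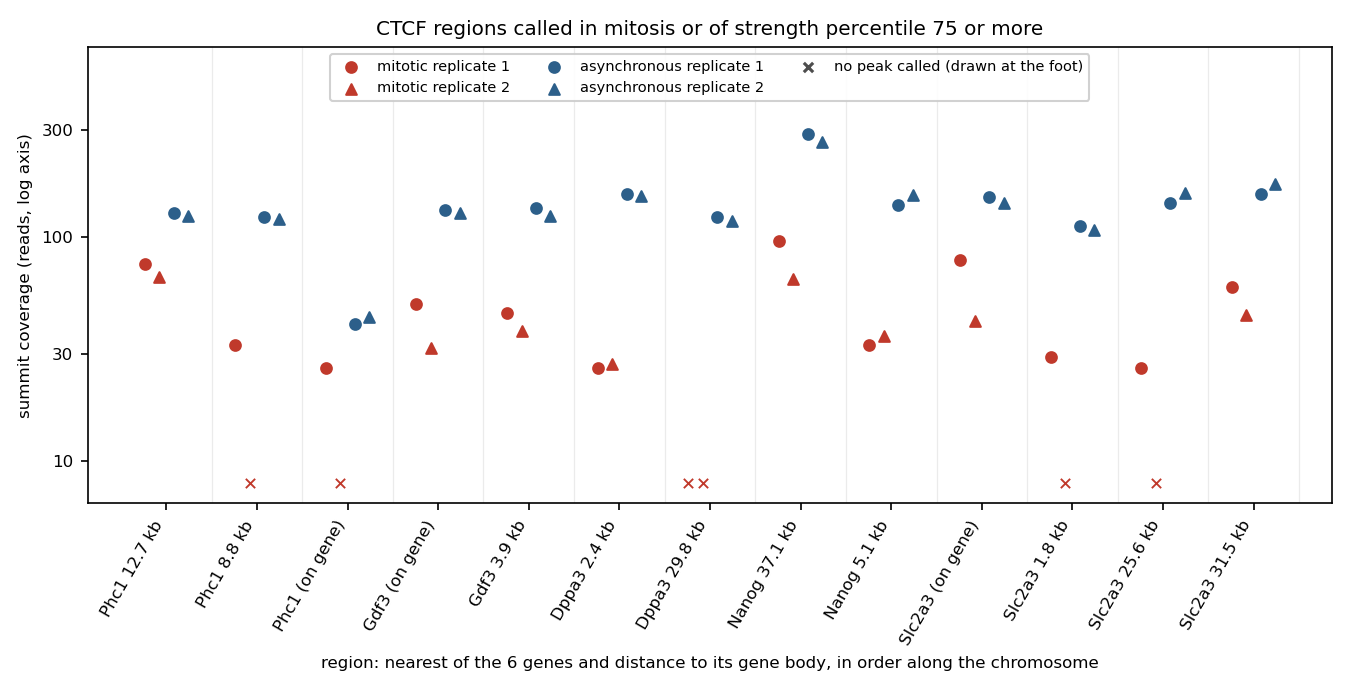
Summit coverage in reads (log axis) of 13 CTCF regions, those with a mitotic peak or a strength percentile of at least 75, ordered along the chromosome and without those near but outside Apobec1. Points are single libraries, mitotic (red) left of asynchronous (blue), and crosses at the foot stand for libraries with no peak. Asynchronous coverage is 107 to 286 reads at all regions shown but the one at the start of Phc1, and mitotic coverage runs from 26 to 96 reads.

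Where both mitotic libraries listed a peak, coverage could be set side by side. The mitotic mean was 17.3% to 79.6% of the asynchronous mean over the 11 such CTCF regions and 19.5% at the SOX2 region of Phc1. Genome-wide the same ratio had a median of 44.0% for CTCF, with 5th and 95th percentiles of 23.6 and 78.3%, and a median of 25.9% for SOX2, with 8.75 and 55.4%. Of the 11 CTCF regions, 2 lay below the genome's 5th percentile, those 2.44 kb from Dppa3 and, by under 0.1 percentage points, 5.08 kb from Nanog, and 1 lay above the 95th. The SOX2 region of Phc1 lay inside the range of SOX2. These ratios are a description of called regions, and mitotic coverage under the calling threshold is missing from them.

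**Figure D4:**
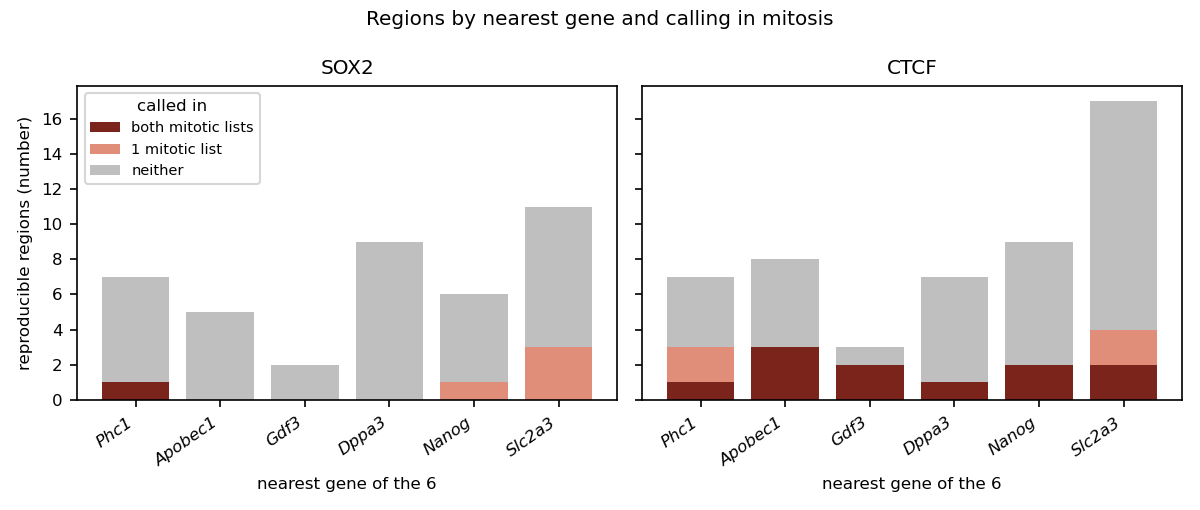
Number of reproducible SOX2 regions (left) and CTCF regions (right) by nearest gene, split by whether both, 1 or neither mitotic list called them. SOX2 regions called in both mitotic lists are found at Phc1, while CTCF regions called in both are found nearest to all 6 genes.

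By nearest gene, each of the 6 genes had at least 1 CTCF region called in both mitotic libraries. They were 3 of 8 for Apobec1, 2 of 3 for Gdf3, 1 of 7 for Dppa3, 2 of 9 for Nanog, 2 of 17 for Slc2a3 and 1 of 7 for Phc1. For SOX2 the corresponding count was 1 of 7 for Phc1 and 0 of 5, 2, 9, 6 and 11 for Apobec1, Gdf3, Dppa3, Nanog and Slc2a3. Genome-wide both mitotic libraries called 24.5% of the CTCF regions and 0.675% of the SOX2 regions.

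The median strength percentile of CTCF was 82.1 in the 11 regions called in both libraries and 28.2 in the 36 called in neither, against 81.6 and 33.9 genome-wide. The median widths were 1213 and 494 bp. Of 5 CTCF regions with a strength percentile of at least 90, mitotic replicate 1 called 5, against 90.9% of such regions in the genome, and replicate 2 called 4, against 83.8%. The exception was the Foxj2 region named above. Among the 46 weaker CTCF regions replicate 1 called 21.7% (12.3 to 35.6), against 28.4% of such regions in the genome. Replicate 2 called 15.2% of them (7.57 to 28.2), against 20.8%. The domain as a whole was weaker in CTCF than the genome, with a median percentile of 37.8 against 50.7. Its SOX2 regions had a median of 48.2 against 47.7, but 8 of the 40 were at 90 or more, against 4726 of 51672.

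**Figure D5:**
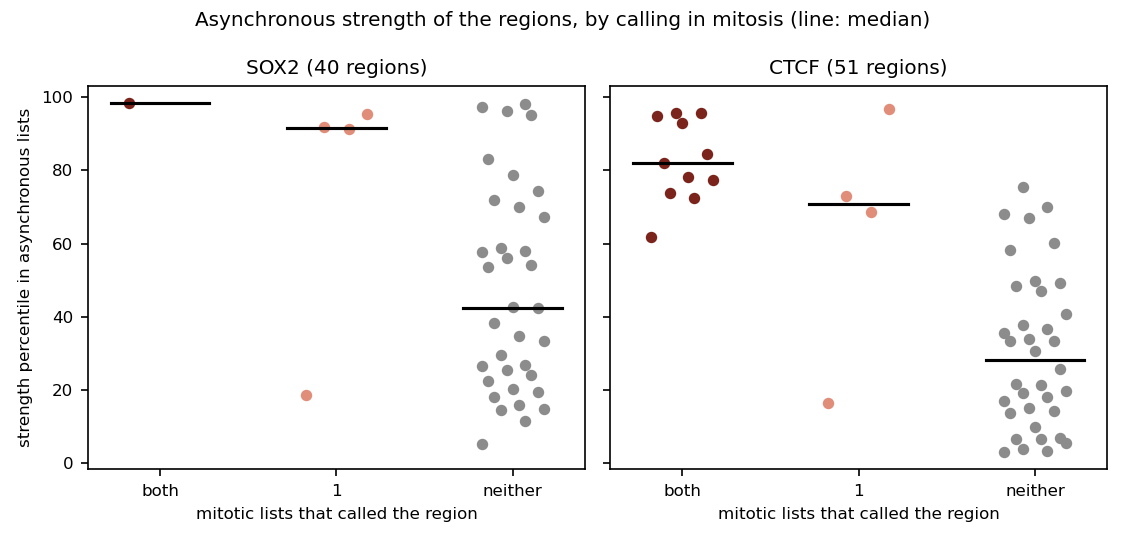
Strength percentile of each reproducible region in the asynchronous lists, for SOX2 (left) and CTCF (right), by how many mitotic lists called it. Points are regions and lines are medians, 42.4 for the SOX2 regions and 28.2 for the CTCF regions called in neither list.

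Set against each other, the CTCF libraries called a mean of 25.5% ± 5.55 of their regions of the domain and the SOX2 libraries 7.5% ± 7.07 of theirs (SD, n = 2 each). The difference of 18.0 percentage points had a two-sided exact permutation p of 0.333, the smallest possible, and both CTCF values were above both SOX2 values. It was 8.59 points with a margin of 10 kb around the genes. When mitotic SOX2 replicate 1 was left out, the SOX2 share was 2.5% and the difference 23.0 points, and when mitotic SOX2 replicate 2 was, they were 12.5% and 13.0 points. Genome-wide the difference was 27.2 points. The antibodies differ, so this compares detection and not occupancy.

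Mitotic summits of CTCF lay close to the asynchronous ones. All 15 and 11 mitotic CTCF summits of the domain lay within 100 bp of the mean asynchronous summit, with medians of 21 and 23.5 bp, close to the 20 bp between asynchronous replicates. The domain was near the genome in this, where 94.2% and 94.7% of mitotic CTCF summits lay within 100 bp, with medians of 22 and 22.5 bp. Of the 5 SOX2 summits in mitotic replicate 1, 2 lay within 100 bp and the median was 107 bp, against 50.5 bp between asynchronous replicates. Genome-wide that SOX2 median was 69.5 bp, and 61.2% of the summits in mitotic replicate 1 lay within 100 bp. The summit 8.12 kb from Slc2a3, 1 of the 2, was 64 bp from the mean of asynchronous summits that stood 872 bp apart. It was within 100 bp of neither, so it does not count under the summit rule used above. The difference between the factors was not tested.

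In asynchronous cells 15 of the 40 SOX2 regions overlapped a CTCF region (37.5%, 24.2 to 53.0), against 20.3% over the genome. Of the 51 CTCF regions, 16 overlapped a SOX2 region (31.4%, 20.3 to 45.0), against 18.3%. The share of SOX2 regions was 6.25% when only peaks with a fold of at least 5 entered, and 15% when summits had to lie within 100 bp. Of the SOX2 regions called in at least 1 mitotic library, 3 of 5 overlapped a CTCF region, against 51.2% over the genome. The 3 were at the start of Phc1, inside Slc2a3 and 8.12 kb from Slc2a3. Of the CTCF regions called in at least 1 mitotic library, 7 of 15 overlapped a SOX2 region, against 22.7% over the genome. For those called in both libraries it was 4 of 11, against 23.2%. An overlap of 1 bp is met more easily by wide regions, and the called SOX2 regions were wider than the others. The SOX2 regions of the domain had a median width of 804.5 bp, against 658 bp genome-wide, and its CTCF regions 579 bp, against 608 bp. The genome shares were not matched for width or for how densely regions lie, so whether overlap was more frequent here was not tested.

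The same counts were taken for 31 other pluripotency genes, with a median of 10 SOX2 regions within 50 kb (3 to 33). At least 1 mitotic library called SOX2 near 14 of the 31, against 17.6% of all 21887 protein-coding genes, and both called it at the same region near 2, against 3.67%. The 2 were Pou5f1, which encodes OCT4, and Lin28a, which encodes an inhibitor of let-7 microRNAs. All 31 genes had SOX2 and CTCF regions, and a gene with more regions has more chances of a call. The background was not matched for the number of regions, so whether calls were more frequent per region was not tested. Counted by the same margin, Nanog had 14 SOX2 regions, 2 of them called in mitotic replicate 1, and Dppa3 had 14 with none called. Slc2a3 had 16 with 4 called, Phc1 had 7 with 1 called, and Gdf3 and Apobec1 had 12 each with none called. CTCF regions, of which the other genes had a median of 8 (1 to 23), were called in at least 1 mitotic library near 23 of the 31, against 71.9% of all protein-coding genes, and in both near 21, against 63.6%. Nanog had 14 CTCF regions with 3 called in both, Dppa3 13 with 4, Gdf3 15 with 6, Apobec1 17 with 6, Slc2a3 25 with 3 and Phc1 7 with 1. Regions between neighbouring genes count for each of them here.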

How the data were processed

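Each library has its own deposited narrowPeak list, with no pooling of replicates. CASAVA 1.4, BWA 0.7.17, SAMtools, MACS2 2.1.1.20160309 and mm10 are named, per the submitters' processing notes. Options and control libraries, not given in the sources used here, could not be checked. The deposited fold is the ratio of summit coverage to local background. The −log10 p and −log10 q of that summit were deposited beside it. These 3 are the authors' values, and the lists end near a q of 0.05.

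Coverage and background were solved from fold and −log10 p under MACS2's Poisson model (SciPy 1.17.1). Coverage came out whole, within 0.002 reads, for 97.8% to 100% of summits solved in each list. A region's coverage in a list is that of its peak with the highest fold. The solver was tested on simulated data. Overlaps were computed in Python 3.11.15, and intervals are 95% Wilson intervals. Means over libraries were compared by two-sided exact permutation tests.

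The genes and lists were chosen with earlier results of these data known. Regions named are those called in mitosis, on or within 1 kb of a gene, or among the 5 strongest of a factor. The regions at −44.6 kb from Nanog and 29.8 kb from Dppa3, and comparisons between neighbouring regions, were chosen once their values had been seen. Alternatives covered thresholds of fold and q, gene distances of 10 and 100 kb, the span between the stretches, overlap rules, regions of either asynchronous list, leaving out each library, and comparing libraries of the same number. Single regions near but outside Apobec1 are not reported here. The 26 input and 52 histone mark libraries were not analysed here.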

Additional observations from a re-analysis of the deposited data

How the results depend on the processing

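Under every alternative computed, mitotic peaks were fewer than asynchronous ones for both factors, and the CTCF share called was above the SOX2 share. A share called has no direction of its own. Genome shares beside it were given only for the 1 bp rule and the summit rule. The mean CTCF share called in mitosis moved to 19.7% at 10 kb and to 18.6% with regions of either asynchronous list. The overlap of SOX2 with CTCF regions moved to 6.25% when folds under 5 were dropped and to 15% by summits within 100 bp, with no genome share given under these rules. The mean SOX2 share was 3.23% at a −log10 q of at least 5, 3.75% by summits and 4.05% with regions of either list, and the CTCF minus SOX2 difference was 8.59 points at 10 kb.

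Leaving out 1 library mattered most for SOX2. The mitotic to asynchronous SOX2 peak ratio, 0.0588, fell to 0.0168 when mitotic replicate 1 was left out and was 0.101 when mitotic replicate 2 was, and the mean SOX2 share was 2.5% and 12.5%. The CTCF ratio, 0.213, ran from 0.180 to 0.246, the CTCF share from 20.3 to 29.4%, the difference between factors from 12.8 to 23.0 points and the overlap from 30.8 to 40%.

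The labels' replicate numbers are not said to pair the libraries. With the replicate block, comparing libraries of the same number, the SOX2 ratio was 0.0554, the CTCF ratio 0.215, the SOX2 share 4.77%, the CTCF share 21.5% and the difference 16.8 points. Exact permutation p-values cannot fall under 0.333 here in any setting with 2 libraries against 2. Sites under the lowest listed summit of 15 to 22 reads in the mitotic lists were not detectable there. The lowest summits of the asynchronous lists were 12 to 19 reads.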
